A study of Danio rerio with 17 samples.

Results

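GABAergic neurons of the larval zebrafish optic tectum were set against glutamatergic neurons of the same dissections, cell by cell class and batch by batch. The cells were selected on their UMIs of these transmitter genes. A cell was taken as GABAergic when it held at least 2 UMIs of gad1b and no UMI of slc17a6a or slc17a6b, and as glutamatergic when it held at least 2 UMIs of slc17a6a and slc17a6b together and no UMI of gad1b. A UMI (unique molecular identifier) stands for a single captured RNA molecule, so that copies made in amplification are counted once. By this rule 5480 cells were GABAergic and 4517 were glutamatergic, 9997 in all. Of 87881 deposited barcodes, 53173 had 600 to 4000 genes, no more than 7500 UMIs and a mitochondrial share of UMIs up to 10%, and the cells were drawn from these.

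The larvae were wild type and received no treatment, and the classes therefore share genotype, tissue and handling. In each session tecta of many larvae, with the attached torus longitudinalis, were dissected, pooled, dissociated with papain and captured in droplets with 10x Chromium 3′ chemistry. Of the 11 batches, 7 came from larvae at 7 dpf (days post-fertilization; batches 1, 2, 3, 4, 8, 11 and 12) and 4 from larvae at 6 dpf (batches 5, 6, 7 and 10). A batch is a pool of animals, so the spread between batches joins differences between larvae, dissections and libraries. For batch 8 a line of the labels gives 6 dpf and the others give 7 dpf, and it was taken as 7 dpf.

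GABA and glutamate are the main inhibitory and excitatory transmitters of the vertebrate brain. GABA is made from glutamate by glutamate decarboxylases, of which gad1b encodes 1 form, and is loaded into synaptic vesicles by the transporter that slc32a1 encodes. Glutamate is loaded by vesicular glutamate transporters such as those of slc17a6a and slc17a6b. In the midbrain, neurons of each kind are known from the mouse to be specified by separate sets of transcription factors, with GATA and TAL factors on the GABAergic side.

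The rule fixed the levels of gad1b, slc17a6a and slc17a6b, which are no result and were removed before library sizes were computed. Of the glutamatergic cells, 2215 held UMIs of both slc17a6 paralogues, 1576 of slc17a6b alone and 726 of slc17a6a alone. Both kinds of marker were found in 3011 cells, which entered neither class, and 13664 cells held a single marker UMI. The median depth was 3216 UMIs in GABAergic cells and 3199 UMIs in glutamatergic cells over all batches, but within a batch the GABAergic median was usually lower, with a ratio to the glutamatergic median of 0.732 to 1.07 and a median ratio of 0.861. Because deeper cells pass a minimum of 2 UMIs more easily, these depths are given as a description. The neuronal gene elavl3, whose product binds RNA in postmitotic neurons, had a UMI in 54.5% to 96.2% of GABAergic cells and in 75% to 94.1% of glutamatergic cells per batch.

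The batches differed widely in cell number. A batch held 22 to 1727 GABAergic cells (median 113) and 13 to 1330 glutamatergic cells (median 274). Batches 2 and 6 were the smallest, with 22 GABAergic and 40 glutamatergic cells in batch 2 and 33 GABAergic and 13 glutamatergic cells in batch 6, so that a gene at 0 in these batches was under the limit of a small sum (45883 and 79736 UMIs in batch 2, 59344 and 21591 UMIs in batch 6, GABAergic first). No barcode overlap stood out among the 66 pairs of lanes, which shared at most 0.736% of their barcodes. Markers of other cells were also measured in both classes. Levels are given as CPM, the UMIs of a gene per 1000000 UMIs of a sum. The summed level of 13 microglial genes ranged from 16.8 to 10436 CPM in GABAergic sums (median 86.9) and from 0 to 356 CPM in glutamatergic sums (median 108). The highest values were those of the GABAergic sums of batch 2 (10436, led by ccl34b.1) and batch 3 (7439, led by apoc1), where 7 of the 13 genes had a UMI, among them in batch 2 neither c1qa, c1qb, c1qc nor csf1ra. The summed level of 16 erythrocyte genes was 1893 CPM in the glutamatergic sum of batch 4, where the median of glutamatergic sums was 74.6. That of 12 epidermal genes was 1898 CPM in the GABAergic sum of batch 3, where the median of GABAergic sums was 84.4. The part of these markers in the results was not tested directly. Values without batches 2, 3 and 6 are given beside the counts below, and batch 4 remains in them.

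**Figure D1:**
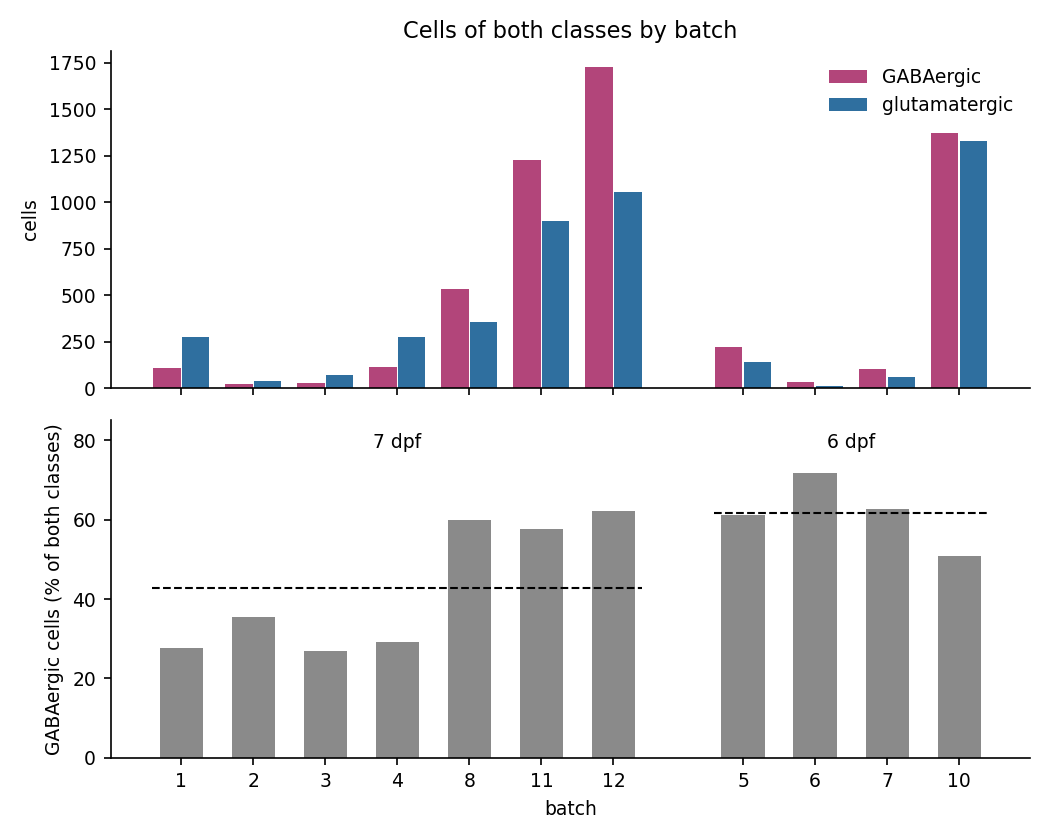
Number of GABAergic and glutamatergic cells (top) and GABAergic cells as a percent of both classes (bottom) in each batch, with 7 dpf batches on the left and 6 dpf batches on the right. Dashed lines are the means of 42.7% at 7 dpf and 61.6% at 6 dpf. The 7 dpf batches 1 to 4 lie between 26.8% and 35.5%, below every other batch.

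The share of GABAergic cells among both classes was compared between ages. In the 7 dpf batches 1, 2, 3, 4, 8, 11 and 12 it was 27.7%, 35.5%, 26.8%, 29.2%, 59.8%, 57.7% and 62.1%. In the 6 dpf batches 5, 6, 7 and 10 it was 61.3%, 71.7%, 62.6% and 50.8%. The ages overlapped. The mean was 42.7% ± 16.4 at 7 dpf (SD, n = 7) and 61.6% ± 8.58 at 6 dpf (SD, n = 4), a difference of -18.9 percentage points that did not pass a two-sided exact permutation test over batches (p = 0.0727, 330 splits). Batches 1 to 8 were sequenced on one instrument (HiSeq) and batches 10 to 12 were taken, by elimination, as those of the other (NovaSeq). Within batches 1 to 8 the share was 35.8% ± 13.8 at 7 dpf (SD, n = 5) and 65.2% ± 5.71 at 6 dpf (SD, n = 3), a difference of -29.4 points (exact permutation p = 0.0357, 56 splits). This is the smallest p that the two-sided test can give with so few batches. The planned test was that over all 11 batches. Batches 10 to 12 held a single 6 dpf batch and gave no test. Without batch 10 the difference over the other batches was -22.5 points (exact permutation p = 0.0333) and without batch 12 it was -22.2 points (exact permutation p = 0.0476), so that the call rested on which batches entered. With a minimum of 1 marker UMI it was -9.44 points (exact permutation p = 0.17).

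To find the genes that separate the classes, UMIs were summed per batch and class, and the 22 sums were compared within batches by the quasi-likelihood test of edgeR, with Benjamini-Hochberg adjustment over the 5603 genes that passed a filter on low counts. Fold changes are GABAergic over glutamatergic on the log2 scale, with the standard error (SE). At an adjusted p under 0.05, 686 genes (12.2% of those tested) were higher in GABAergic neurons and 732 (13.1%) were higher in glutamatergic neurons, together 25.3%. A change of at least 1 on the log2 scale was found in 110 of these genes higher in GABAergic neurons and in 132 higher in glutamatergic neurons, and a change of at least 2 in 36 and 34. The same direction in all 11 batches was seen in 68 called genes (1.21% of those tested) higher in GABAergic neurons and 85 (1.52%) higher in glutamatergic neurons. In 13 genes (0.232%) every GABAergic sum lay above every glutamatergic sum, and in 12 (0.214%) every GABAergic sum lay below. Leaving out batches 2, 3 and 6, an alternative chosen after seeing the data, gave 1002 and 1155 calls among 8628 genes tested, and 96.5% of the 1418 genes called in all batches were among them. Leaving out batch 10, 11 or 12 lowered the counts to 439 and 436, 496 and 353, and 453 and 445 calls among 4644, 4605 and 4622 genes tested.

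**Figure D2:**
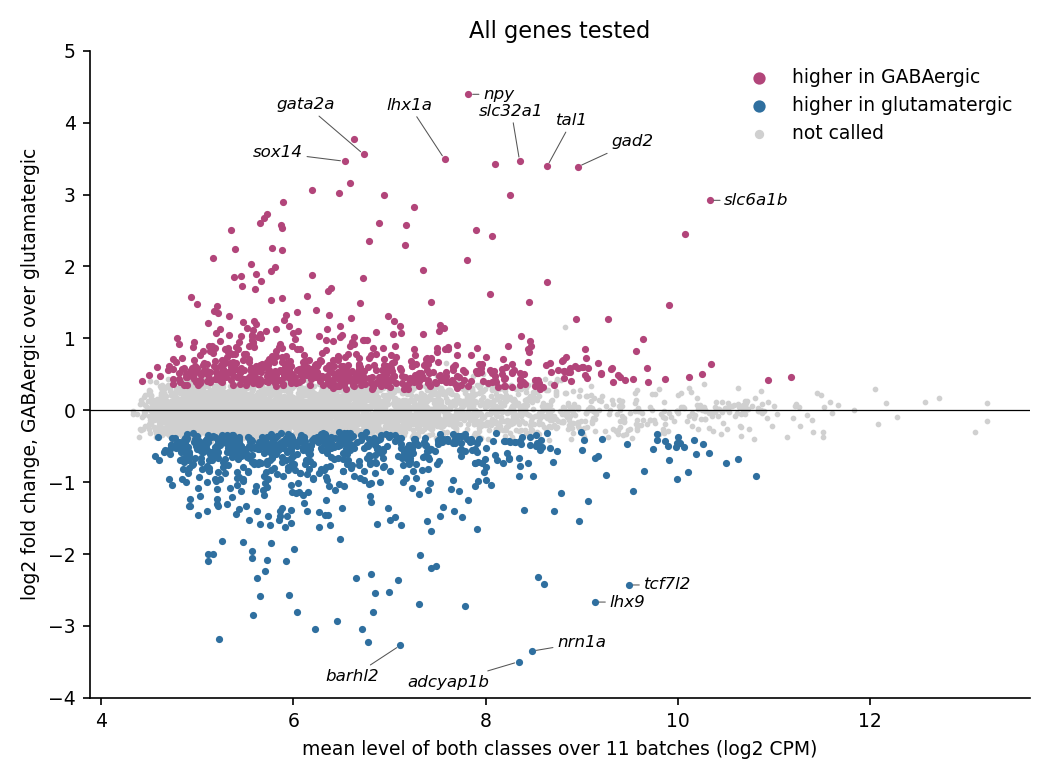
Log2 fold change (GABAergic over glutamatergic, y axis) against the mean level of both classes over 11 batches (log2 CPM, x axis) for the 5603 genes tested. Coloured points passed an adjusted p of 0.05, 686 of them above 0 and 732 below. npy has the highest fold change, 4.39, and adcyap1b the lowest, -3.50.

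Among GABA transmission genes outside the rule, 5 genes for synthesis, vesicle loading or reuptake of GABA were higher in GABAergic neurons. Of 13 listed genes 7 passed the filter, of which 5 were higher and 1 was lower in GABAergic neurons, beside 12.2% and 13.1% of all genes tested. The median log2 fold change of the 7 was 2.12, beside -0.04 over all genes. The 6 members below the filter, among them the transporter genes slc6a11a (-0.01), slc6a11b (0.20) and slc6a1l (-0.72), were not called in the fit without it, where the median of all 13 was 0.20. Summed over the list, the level was 2244 to 6870 CPM in GABAergic sums (median 5220) and 556 to 1625 in glutamatergic sums (median 923), without overlap.

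The second glutamate decarboxylase gene, gad2, stood at 1883, 1157, 459, 684, 871, 523, 859, 594, 664, 1028 and 1222 CPM in the GABAergic sums of batches 1 to 8 and 10 to 12. In the glutamatergic sums of the same batches it stood at 61.6, 87.9, 106, 86.0, 83.1, 46.4, 185, 201, 52.6, 44.0 and 56.4. Every GABAergic sum was above every glutamatergic sum, and the log2 fold change was 3.39 ± 0.28 (SE, n = 11 batches, edgeR adjusted p = 3.81e-09). The vesicular transporter gene slc32a1 ranged from 304 to 1070 CPM (median 577) in GABAergic sums and from 0 to 124 (median 48.4) in glutamatergic sums, again without overlap (log2 fold change 3.46 ± 0.26). The GABA reuptake transporter gene slc6a1b ranged from 939 to 3886 (median 2511) in GABAergic sums and from 151 to 650 (median 232) in glutamatergic sums (2.92 ± 0.21). Its paralogue slc6a1a overlapped between classes, at 50.6 to 790 (median 410) in GABAergic sums and 46.4 to 448 (median 255) in glutamatergic sums, and was higher in GABAergic neurons in 9 of 11 batches (1.03 ± 0.18, edgeR adjusted p = 0.000146). gad1a, the paralogue of the marker gad1b, was higher in GABAergic neurons in 11 of 11 batches (2.12 ± 0.16), at medians of 71.6 and 14.9 CPM in GABAergic and glutamatergic sums. abat, whose enzyme degrades GABA, did not pass the test (0.29 ± 0.13, edgeR adjusted p = 0.0988), but passed without batches 2, 3 and 6 (0.35, adjusted p = 0.0413). aldh9a1a.1, an aldehyde dehydrogenase gene placed on a minor route to GABA, was lower in GABAergic neurons (-0.70 ± 0.17, edgeR adjusted p = 0.00373). It had a UMI in 48.6% of cells with microglial markers and in 5.05% of GABAergic and 7.70% of glutamatergic cells.

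Genes of glutamate handling were divided, with smaller values. Of 19 listed genes 9 passed the filter, 3 were higher and 1 was lower in GABAergic neurons, beside 12.2% and 13.1% of all genes. The median log2 fold change of the 9 was -0.03. glula, which encodes glutamine synthetase and is best known from glia, was higher in GABAergic neurons in 10 of 11 batches (0.85 ± 0.16, edgeR adjusted p = 0.000397), at medians of 672 CPM in GABAergic and 327 in glutamatergic sums. It was present in 93.5% of microglia-marker cells. The aspartate aminotransferase genes got1 (0.56 ± 0.16) and got2b (0.39 ± 0.13) were also higher, while glulb was lower (-0.42 ± 0.13). The glutaminase genes glsa (-0.08 ± 0.12) and glsb (-0.03 ± 0.11), whose enzymes make glutamate from glutamine, did not pass the test, nor did the transporter genes slc1a1 and slc1a2b or the dehydrogenase gene glud1b. The other vesicular glutamate transporter genes were rare and fell below the filter. In the fit without the filter, where 4.77% of 24208 genes were higher in GABAergic and 5.69% in glutamatergic neurons, slc17a7a (59 UMIs in GABAergic and 125 in glutamatergic cells) and slc17a7b (49 and 104 UMIs) were lower in GABAergic neurons, with log2 fold changes of -1.29 ± 0.30 and -1.35 ± 0.32. slc17a8 had 28 and 29 UMIs and did not pass. Genes below the filter are named here and below after their values were seen.

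Of the genes for glycine transmission, only the glial transporter gene slc6a9 passed the filter, and it did not pass the test (0.13 ± 0.16). The neuronal glycine transporter gene slc6a5 had 43 UMIs in all GABAergic and 51 in all glutamatergic cells. Acetylcholine genes were low in both classes. ache, which encodes acetylcholinesterase, did not differ past the threshold (0.15 ± 0.11). Below the filter, the choline acetyltransferase gene chata had 236 UMIs in GABAergic and 645 in glutamatergic cells (-1.70 ± 0.18), the choline transporter gene slc5a7a had 122 and 292 (-1.50 ± 0.21), and the vesicular acetylcholine transporter gene slc18a3a had 55 and 117 (-1.37 ± 0.30). These 3 genes were lower in GABAergic neurons in the fit without the filter. None of the 13 genes for monoamine transmission passed the filter. In the fit without it, tph1a (519 UMIs in GABAergic and 115 in glutamatergic cells, 1.87 ± 0.21) was higher in GABAergic neurons. tph1b (323 and 465 UMIs, -0.84 ± 0.18) was lower.

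**Figure D3:**
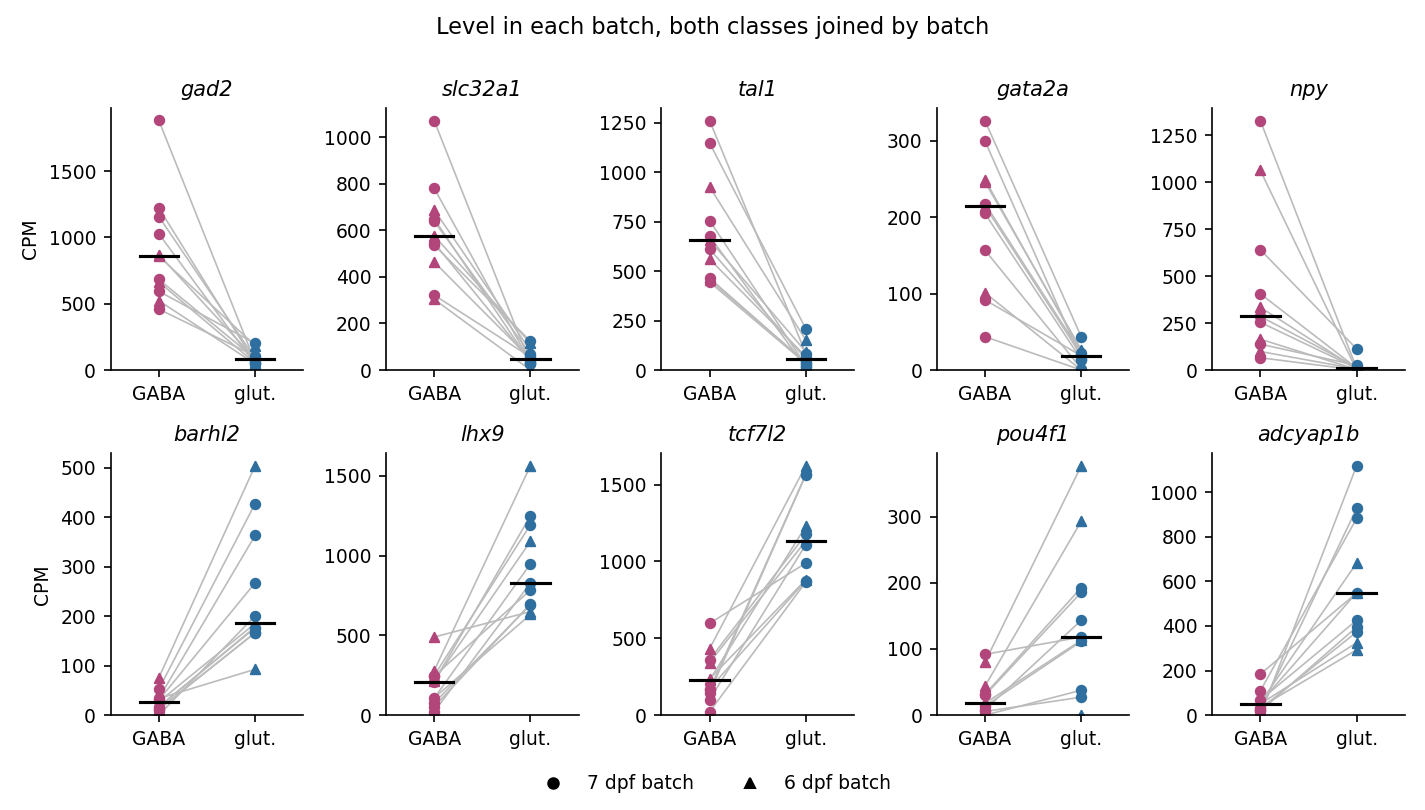
CPM (y axis) of 10 genes in the GABAergic (left of each panel) and glutamatergic (right) sum of each batch, with grey lines joining the classes of a batch and black bars at the medians over 11 batches. Circles are 7 dpf and triangles 6 dpf batches. gad2, slc32a1, tal1 and, narrowly, gata2a of the upper row and barhl2, lhx9, tcf7l2 and adcyap1b of the lower row show no overlap between classes.

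Transcription factors tied to GABAergic fate in the midbrain or hindbrain of fish and mouse were called in 1 direction. The list was chosen with earlier results of these data known, so its direction is a description and no independent test. Of 36 listed genes 9 passed the filter, and all 9 were higher in GABAergic neurons, beside 12.2% of all genes tested. Their log2 fold changes ran from 1.36 to 3.56 (median 2.99). A gene that is silent in glutamatergic cells can pass the filter only through the GABAergic sums, so the other members matter too. In the fit without the filter, 14 of the 35 members with any UMI were higher and 0 were lower in GABAergic neurons, and the median of the 35 was 1.04. There 4.77% of all genes were higher and 5.69% lower. The summed level of the list was 2030 to 4987 CPM in GABAergic sums (median 3986) and 417 to 1369 in glutamatergic sums (median 1006).

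tal1, a basic helix-loop-helix factor needed for GABAergic identity in parts of the mouse midbrain and hindbrain, stood at 757, 677, 612, 1262, 927, 658, 457, 1149, 561, 446 and 465 CPM in the GABAergic sums of batches 1 to 8 and 10 to 12. In the glutamatergic sums it stood at 21.8, 12.6, 56.0, 83.5, 151, 92.7, 38.2, 208, 68.1, 32.8 and 36.6. No glutamatergic sum reached the lowest GABAergic sum (log2 fold change 3.39 ± 0.20, edgeR adjusted p = 4.06e-11). The zinc finger gene gata2a, a selector of GABAergic fate in the mouse midbrain, was at 43.7 to 327 CPM (median 215) in GABAergic sums and 0 to 43.6 (median 18.7) in glutamatergic sums (3.56 ± 0.18). gata3 had a log2 fold change of 2.99 ± 0.21 and higher values in GABAergic neurons in 11 of 11 batches. The LIM homeobox gene lhx1a (3.49 ± 0.20) was at 131 to 597 CPM (median 237) in GABAergic and at 0 to 96.9 (median 24.6) in glutamatergic sums. The SoxB2 gene sox14 (3.46 ± 0.20) was at 65.5 to 252 (median 152) and at 0 to 46.4 (median 20.9). Both were without overlap between classes. otx1 (2.54 ± 0.20) was higher in GABAergic neurons in 9 of 11 batches. Genes of the FOG family, which are cofactors of GATA proteins, had log2 fold changes of 1.46 ± 0.14 for zfpm2a, 1.50 ± 0.17 for zfpm2b and 1.36 ± 0.19 for zfpm1. Below the filter, lhx5 (1219 UMIs in GABAergic and 87 in glutamatergic cells, 3.46 ± 0.20) and tal2 (489 and 41 UMIs, 3.24 ± 0.25) were higher in GABAergic neurons.

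Factors tied to glutamatergic fate were mostly, but not all, on the other side. This list, too, was chosen with earlier results of these data known. Of 47 listed genes 20 passed the filter, 13 of them lower and 3 higher in GABAergic neurons, with a median log2 fold change of -2.30. Over all genes tested, 13.1% were lower and 12.2% higher. Without the filter, 21 of the 46 members with a UMI were lower and 5 higher, with a median of -0.81. In that fit 5.69% of all genes were lower and 4.77% higher. The summed level was 895 to 4434 CPM in GABAergic sums (median 3691) and 4658 to 10081 in glutamatergic sums (median 7484), and these did not overlap.

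The Bar homeobox gene barhl2 stood at 11.2, 0, 30.6, 33.8, 75.6, 33.7, 15.9, 52.5, 27.2, 11.9 and 17.2 CPM in the GABAergic sums of batches 1 to 8 and 10 to 12. Its glutamatergic values were 167, 201, 267, 364, 504, 92.7, 178, 428, 185, 167 and 177. The lowest glutamatergic value, in batch 6, lay above the highest GABAergic value, in batch 5 (log2 fold change -3.27 ± 0.15, edgeR adjusted p = 6.52e-13, the smallest of all genes). barhl1a followed at 0 to 105 (median 61.2) in GABAergic and 119 to 451 (median 232) in glutamatergic sums (-2.69 ± 0.18). The LIM homeobox gene lhx9 was at 21.8 to 489 CPM (median 210) in GABAergic and 631 to 1564 (median 829) in glutamatergic sums (-2.67 ± 0.22). Its relative lhx2b also fell in GABAergic neurons (-2.80 ± 0.24). tcf7l2, a transcriptional effector of Wnt signalling that marks thalamic and tectal territories, was at 21.8 to 597 (median 228) in GABAergic and 866 to 1623 (median 1134) in glutamatergic sums (-2.43 ± 0.22).

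The POU homeobox genes pou4f1 (-2.93 ± 0.19) and pou4f2 (-2.36 ± 0.19), known from retinal ganglion cells and the mouse superior colliculus, were lower in GABAergic neurons in 10 and 11 of 11 batches. pou4f1 had no UMI in either class in batch 6. tfap2d, an AP-2 gene, was lower in 10 of 11 batches (-3.04 ± 0.19). neurod1 (-2.28 ± 0.22), a basic helix-loop-helix gene of differentiating neurons, and ebf1b (-2.32 ± 0.32) were also lower, as were both genes listed as ebf3a, ENSDARG00000099849 by -1.26 ± 0.17 and ENSDARG00000100244 by -0.61 ± 0.13. Below the filter, barhl1b (139 UMIs in GABAergic and 1102 in glutamatergic cells, -3.26 ± 0.18), neurod2 (42 and 508, -3.83 ± 0.24) and neurod6b (102 and 652, -2.93 ± 0.20) were lower in GABAergic neurons.

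The 3 members that went the other way were all homeobox genes. emx2, known from forebrain patterning, was at 84.4 to 278 CPM (median 176) in GABAergic and 10.9 to 76.5 (median 16.9) in glutamatergic sums, without overlap (3.16 ± 0.20). uncx was at 109 to 569 (median 432) and 19.1 to 170 (median 65.3), and its paralogue uncx4.1 at 21.8 to 139 (median 61.2) and 0 to 37.6 (median 6.37), in GABAergic and glutamatergic sums. The log2 fold change was 2.51 ± 0.22 for each of them, higher in GABAergic neurons in 11 of 11 batches.

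Patterning genes of the midbrain were divided between the classes. Of 51 listed genes 27 passed the filter, 10 (37.0%) higher and 11 (40.7%) lower in GABAergic neurons, beside 12.2% and 13.1% of all genes. Their median log2 fold change was -0.30. Members were found on both sides. otx2b changed by 3.02 ± 0.22, dmbx1a by 2.89 ± 0.25, and pax7a and pax7b, paired box genes of the dorsal midbrain, by 2.42 ± 0.24 and 2.83 ± 0.28. Each was higher in GABAergic neurons in 11 of 11 batches. In the fit without the filter 13 of the 51 members were higher and 22 lower, beside 4.77% and 5.69% of all genes. There the paired box gene pax3a (349 UMIs in GABAergic and 160 in glutamatergic cells, 0.77 ± 0.20) was higher in GABAergic neurons. Another, pax6b (118 and 158 UMIs, -0.84 ± 0.26), was lower, at a median of 0 CPM in both classes. The TALE homeobox gene meis2b was at 0 to 71.3 CPM (median 11.9) in GABAergic and 85.2 to 371 (median 163) in glutamatergic sums (-3.22 ± 0.16). satb1a (-1.33 ± 0.14), onecut2 (-1.05 ± 0.16) and zic2a (-1.44 ± 0.25) were lower in GABAergic neurons in 10 of 11 batches each.

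**Figure D4:**
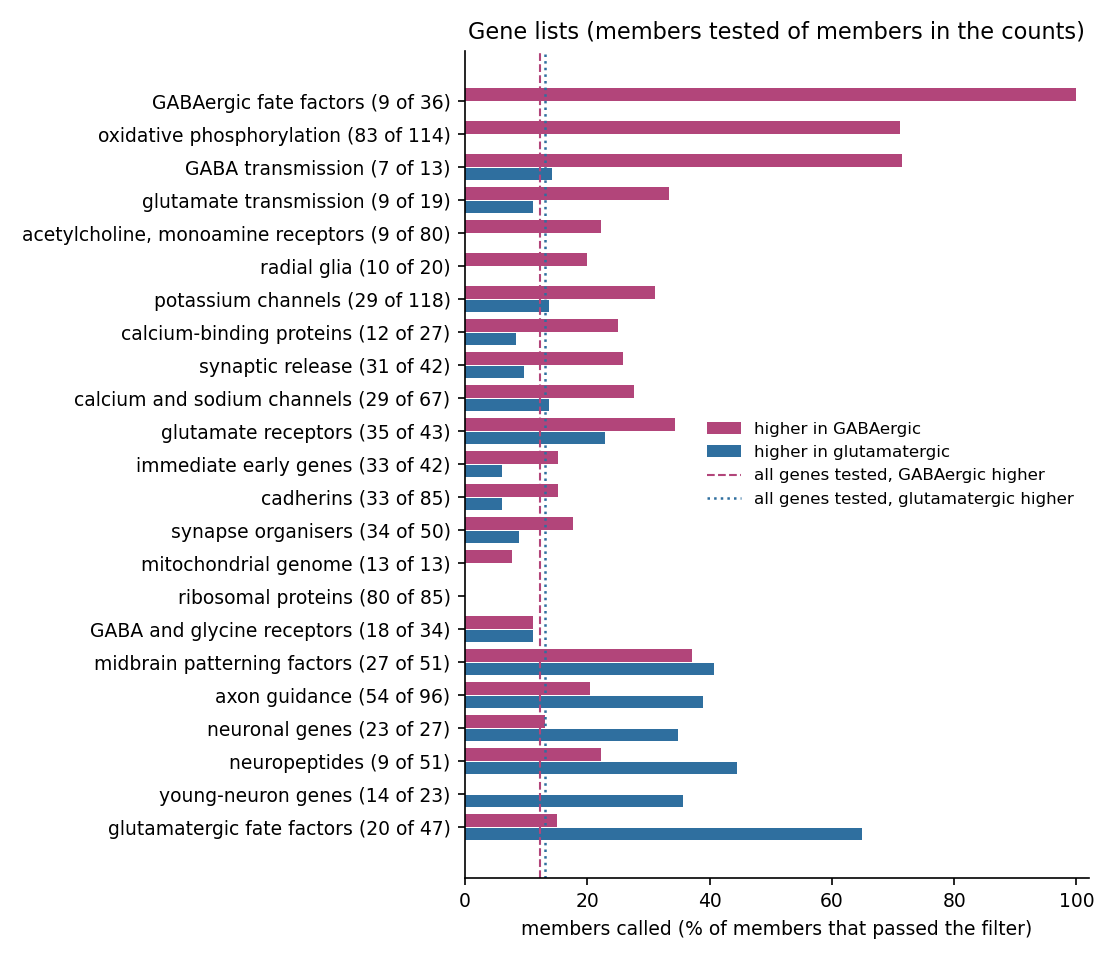
Members called higher in GABAergic or in glutamatergic neurons as a percent of the members that passed the filter (x axis), for lists with at least 7 such members. The vertical lines mark 12.2% and 13.1%, the shares of all genes tested. All 9 tested GABAergic fate factors are higher in GABAergic neurons, while ribosomal protein genes have no call in either direction. The lists were chosen with earlier results of these data known.

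Among the genes that passed the filter, a neuropeptide gene had the largest fold change on each side. npy, which encodes neuropeptide Y, was at 1328, 65.5, 138, 286, 164, 1063, 334, 641, 98.7, 406 and 254 CPM in the GABAergic sums of batches 1 to 8 and 10 to 12. Its glutamatergic values ranged from 0 to 113, with a median of 9.07 and the highest in batch 8. The log2 fold change was 4.39 ± 0.31 (edgeR adjusted p = 3.64e-10), higher in 11 of 11 batches, and the values of the classes overlapped across batches. npy had a UMI in 5.62% of GABAergic cells. adcyap1b, which encodes a PACAP peptide, was at 0 to 184 CPM (median 50.6) in GABAergic and 293 to 1118 (median 547) in glutamatergic sums, without overlap (-3.50 ± 0.22). The cholecystokinin gene cckb (-2.54 ± 0.23) and the granin genes chga (-0.52 ± 0.16) and scg2b (-0.51 ± 0.19) were lower in GABAergic neurons, and the cortistatin gene cort was higher (2.24 ± 0.39). scg2b lay at the threshold (edgeR adjusted p = 0.0499) and reversed to 0.06 in batches 10 to 12 alone. Of 51 listed peptide genes 9 passed the filter, 2 (22.2%) higher and 4 (44.4%) lower in GABAergic neurons. Over all genes tested, 12.2% were higher and 13.1% lower. Without the filter 8 of the 48 members with a UMI were higher and 10 lower, beside 4.77% and 5.69% of all genes. Among those below the filter, the enkephalin gene penkb (1477 UMIs in GABAergic and 96 in glutamatergic cells, 3.61 ± 0.19), npb (917 and 59, 3.60 ± 0.22) and vip (206 and 3) were higher in GABAergic neurons. ccka (64 and 460 UMIs, -2.74 ± 0.21), nts (80 and 274, -1.63 ± 0.23) and tac1 (24 and 77, -2.04 ± 0.39) were lower.

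Among the 10 genes with the largest log2 fold change in each direction that held in every batch, several belonged to no list. znf385c, a zinc finger gene, was at 169 to 761 CPM (median 467) in GABAergic and 0 to 115 (median 43.5) in glutamatergic sums (3.43 ± 0.21). BX901973.1, which carries only a clone name, changed by 3.06 ± 0.29. In the other direction, nrn1a, whose product neuritin promotes neurite growth, was at 21.8 to 276 (median 63.6) in GABAergic and 415 to 1017 (median 566) in glutamatergic sums (-3.35 ± 0.20). The homeobox gene shox (-3.05 ± 0.21) and the zinc finger gene bnc2 (-2.73 ± 0.24) were lower in GABAergic neurons in 11 of 11 batches.

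A summed level does not tell more cells with a gene from more RNA in each cell, so the share of cells with at least 1 UMI was also counted. Free RNA in the droplets gives UMIs in cells that do not express a gene. It was gauged in 138 cells with a UMI of at least 3 of 8 microglial markers, whose median depth was 4221 UMIs and of which 14.5% held gad1b and 15.9% held slc17a6a or slc17a6b. 7 of them were in the GABAergic and 4 in the glutamatergic class. Doublets, which are barcodes with more than 1 cell, were not removed, and their part in these UMIs was not tested. Their mix of batches was not that of the classes, with 26 cells from batch 1, 19 from batch 2 and 0 from batch 5. The shares below are pooled over batches and not matched for this. slc32a1 had a UMI in 71.5% of GABAergic, 12.4% of glutamatergic and 8.70% of microglia-marker cells. After thinning to 1000 UMIs per cell (5331 GABAergic, 4386 glutamatergic and all 138 microglia-marker cells) the shares were 42.6%, 5.13% and 0.725%. tal1 was found in 56.9%, 11.3% and 8.70% of these cells (32.8%, 5.22% and 4.35% after thinning).

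The genes of glutamatergic neurons gave the mirror image. barhl2 was found in 6.19% of GABAergic, 34.2% of glutamatergic and 5.07% of microglia-marker cells (2.42%, 15.8% and 2.17% after thinning). lhx9 was found in 20.2%, 67.7% and 16.7% (9.32%, 42.6% and 6.52% after thinning). tcf7l2 was found in 29.4% of GABAergic, 57.5% of glutamatergic and 33.3% of microglia-marker cells (14.3%, 42.2% and 13.0% after thinning). npy differed from the other leading genes. Its 5.62% of GABAergic cells (3.66% after thinning) were few beside 2.01% of glutamatergic and 2.17% of microglia-marker cells (1.00% and 0.725% after thinning).

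The values just inside and just outside the rule are given without a test, because the marker count chose the cells. Pooled over batches, gad2 was at 1104, 675 and 413 CPM in cells with at least 3 (3151 cells), 2 (2329) and 1 (6294) UMIs of gad1b. In cells with both kinds of marker it was at 346, and in cells with 1 (7370), 2 (2592) and at least 3 (1925) UMIs of slc17a6a and slc17a6b at 116, 78.8 and 48.8. slc32a1 ran in the same order, at 677, 527, 349, 245, 87.6, 59.0 and 32.2. tal1 was nearly level on the GABAergic side, at 540, 576 and 529 in cells with at least 3, 2 and 1 UMIs of gad1b, and at 143, 79.3 and 39.8 in cells with 1, 2 and at least 3 UMIs of slc17a6a and slc17a6b. npy was at 281 and 280 with at least 3 and 2 UMIs of gad1b and at 94.6 with 1. barhl2 ran the other way, at 18.2, 29.7 and 79.5 with at least 3, 2 and 1 UMIs of gad1b and 205, 218 and 197 with 1, 2 and at least 3 UMIs of slc17a6a and slc17a6b. The 255 cells with at least 2 UMIs of each kind of marker held gad2 at 380 and barhl2 at 95.8.

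**Figure D5:**
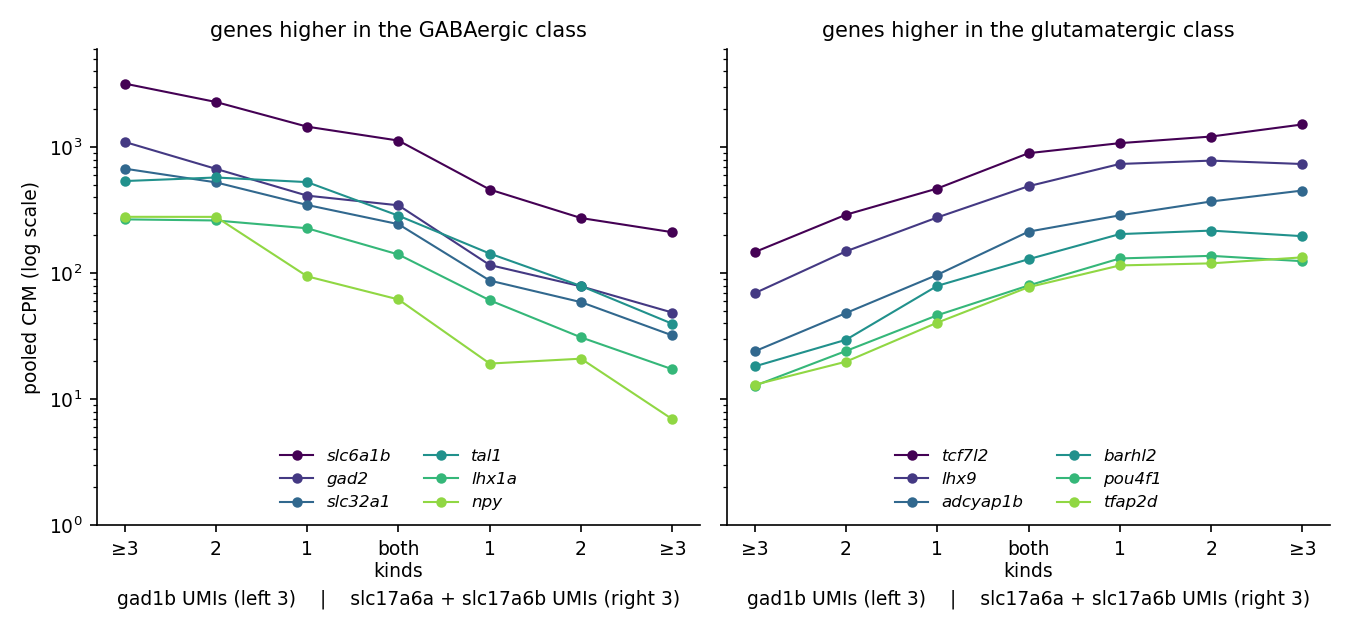
Pooled CPM (y axis, log scale) in cells ordered by their marker UMIs, from at least 3 UMIs of gad1b on the left through cells with both kinds of marker to at least 3 UMIs of slc17a6a and slc17a6b on the right. Cells with both kinds lie between the classes for every gene shown, such as slc6a1b at 1131 and tcf7l2 at 898.

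How genes of a class were spread over its cells was described by counting cells with both members of a pair, beside the number expected from their shares within 5 depth strata of each batch. These genes were chosen after their values were seen and no test was made. Among GABAergic cells, gata2a and lhx1a were together in 941 cells against 701 expected (ratio 1.34), more than expected in 9 of 10 batches with an expectation of at least 1. lhx1a and uncx were together in 994 cells against 758 expected (1.31), and sox14 and uncx in 784 against 610 (1.28). gata2a was found with npy in 79 cells against 108 expected (0.73) and with pax7a in 748 against 909 (0.82). tal1, the most widely detected of the factors, stayed between 1.02 and 1.1 with each of the other 9 genes.

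Pairs among glutamatergic cells had ratios on both sides of 1. pou4f1 was found with meis2b in 275 cells against 181 expected (1.52) and with tfap2d in 335 against 243 (1.38). barhl1a and meis2b were together in 286 cells against 198 (1.45), but barhl1a and tfap2d in 197 against 251 (0.78). lhx9 and tcf7l2 were together in 1789 cells, against 1785 expected.

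Receptor genes for the transmitters went both ways. Over all genes tested, 12.2% were higher and 13.1% lower in GABAergic neurons. Of 43 listed glutamate receptor genes 35 passed the filter, 12 (34.3%) higher and 8 (22.9%) lower in GABAergic neurons, with a median log2 fold change of 0.14. The NMDA receptor subunit gene grin3ba (1.58 ± 0.16) and the AMPA receptor subunit gene gria1b (0.70 ± 0.12) were higher. The metabotropic receptor genes grm2b (-1.37 ± 0.16) and grm2a (-1.19 ± 0.17) and the delta receptor genes grid1a and grid1b (-0.92 ± 0.16 each) were lower. Of 34 GABA and glycine receptor genes 18 passed the filter, of which gabra3 (0.84 ± 0.15) and gabrz (0.48 ± 0.12) were higher and gabrr2a (-0.59 ± 0.13) was among those lower, 11.1% each way, near the shares of all genes. Of 80 acetylcholine and monoamine receptor genes 9 passed the filter. Of these, 2 (22.2%) were higher, htr7c (1.47 ± 0.17) and chrm2a (0.82 ± 0.15), and 0 lower. In the fit without the filter 14 of the 80 were higher and 8 lower, beside 4.77% and 5.69% of all genes. Among them chrna6 (1146 UMIs in GABAergic and 167 in glutamatergic cells, 2.39 ± 0.18) was higher and htr1fa (208 and 454 UMIs, -1.40 ± 0.18) lower.

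Ion channel genes were called in both directions. Over all genes, 12.2% were higher and 13.1% lower in GABAergic neurons, and 4.77% and 5.69% in the fit without the filter. Among 29 potassium channel genes tested of 118, 9 (31.0%) were higher, led by kcnd1 (1.88 ± 0.21), and 4 (13.8%) lower, led by kcnq5a (-1.40 ± 0.16), while its paralogue kcnq5b was higher (1.56 ± 0.21). Without the filter 15 of the 112 members with a UMI were higher and 15 lower. Among 29 calcium and sodium channel genes tested of 67, 8 (27.6%) were higher, among them the auxiliary subunit genes cacng3b (0.95 ± 0.13) and cacna2d2a (0.69 ± 0.11), and 4 (13.8%) lower, with the auxiliary subunit gene CACNA2D1 at -1.62 ± 0.14. Without the filter 13 of these 67 were higher and 9 lower. Calcium-binding protein genes had 3 of 12 tested higher, cabp1b (1.40 ± 0.14), calb2b (1.06 ± 0.22), which encodes a calretinin, and hpcal4 (0.53 ± 0.16), and necab2 lower (-0.42 ± 0.14).

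Genes of transmitter release were 8 of 31 (25.8%) higher and 3 (9.68%) lower in GABAergic neurons, beside 12.2% and 13.1% of all genes. The SNARE gene snap25b (0.82 ± 0.14) and the calcium sensor gene syt1a (0.64 ± 0.13) were higher, and the vesicle protein gene sv2bb was lower (-2.81 ± 0.19), at means of 22.2 and 109 CPM in GABAergic and glutamatergic sums. Synapse organisers were nearer the shares of all genes, with 6 (17.6%) higher and 3 (8.82%) lower of 34 tested and 25 not called. Their median log2 fold change was -0.05, but single members had large changes on either side. nxph2b, which encodes a secreted ligand of neurexins, changed by 2.60 ± 0.15, and nrxn3a, which encodes a neurexin, by 2.45 ± 0.21, at means of 1830 ± 1149 CPM in GABAergic and 319 ± 153 in glutamatergic sums (SD, n = 11). cbln2b, whose cerebellin product links neurexins to postsynaptic receptors, was lower, at 0 to 95.4 (median 30.6) in GABAergic and 99.4 to 371 (median 193) in glutamatergic sums, without overlap (-2.53 ± 0.20).

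Axon guidance genes were more often lower than higher in GABAergic neurons. Of 54 tested of 96, 21 (38.9%) were lower and 11 (20.4%) higher, beside 13.1% and 12.2% of all genes. The Slit receptor genes robo1 (-1.54 ± 0.14, lower in 11 of 11 batches) and robo3 (-1.20 ± 0.16, lower in 11 of 11) and the ligand gene slit3 (-1.85 ± 0.19) were among those lower, and the semaphorin gene SEMA4F (1.29 ± 0.15) and the ephrin receptor gene ephb4a (0.98 ± 0.12) among those higher. Of 33 cadherin genes tested, 5 (15.2%) were higher, 2 (6.06%) were lower and 26 were not called.

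Of the general neuronal genes, 8 of 23 (34.8%) were lower and 3 (13.0%) higher in GABAergic neurons. Over all genes tested, 13.1% were lower and 12.2% higher. The growth cone gene gap43 was lower (-1.68 ± 0.17), as were the microtubule genes stmn2b and map1b (-1.14 ± 0.13). elavl3 (-0.29 ± 0.13, edgeR adjusted p = 0.102) and snap25a (-0.15 ± 0.17) did not pass. Genes of young neurons were lower in 5 of 14 (35.7%) and higher in 0, among them insm1a (-1.09 ± 0.14), tmsb (-1.47 ± 0.19) and sox11a (-0.73 ± 0.13). In radial glia genes 2 of 10 were higher, glula and sox2 (2.58 ± 0.27). Of 26 listed cell cycle genes only 4 passed the filter, and 0 of these were called. In the fit without the filter 1 of the 26 was higher and 1 lower, beside 4.77% and 5.69% of all genes. The higher one was aurka (1408 UMIs in GABAergic and 170 in glutamatergic cells, 2.54 ± 0.19). The summed level of 20 radial glia genes was 765 to 4976 CPM in GABAergic sums (median 1499) and 528 to 5682 in glutamatergic sums (median 1231).

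Genes of oxidative phosphorylation encoded in the nucleus moved together. Of 114 listed 83 passed the filter, and 59 (71.1%) were higher and 0 lower in GABAergic neurons, beside 12.2% and 13.1% of all genes, with a median log2 fold change of 0.43 and called values from 0.32 to 1.03. ndufv1, a subunit of complex I, changed by 0.70 ± 0.13, and uqcrc2b, of complex III, by 0.63 ± 0.12. The summed level was 8376 to 25363 CPM in GABAergic sums (median 14556) and 6079 to 24806 in glutamatergic sums (median 10685), higher in GABAergic neurons in 10 of 11 batches. Cells thinned to 1000 UMIs gave 40 of 59 genes higher and a median of 0.42, beside 14.9% of all genes higher. In batches 1 to 8 alone 1 of 76 genes was higher, at a median of 0.38, where 2.65% of all genes were. In batches 10 to 12 alone 78 of 110 were higher, beside 10.6% of all genes. Without the batch term 0 of 83 were called, where 2.18% and 2.61% of all genes were, at a median of 0.31. Of the 13 genes of the mitochondrial genome, all with a log2 fold change above 0, mt-nd6 alone was called (0.36 ± 0.13), and the median mitochondrial share per batch was 0.494% to 4.83% (median 3.18%) in GABAergic cells and 0.413% to 3.58% (median 2.54%) in glutamatergic cells. Ribosomal protein genes showed no call among 80 tested, with a median of 0.00. Without batches 2, 3 and 6, 12 of 81 were lower in GABAergic neurons, where 13.4% of all genes were.

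Immediate early genes, which respond to neuronal activity and to dissociation, had 5 of 33 (15.2%) higher and 2 (6.06%) lower, beside 12.2% and 13.1% of all genes. bdnf, a neurotrophin gene on this list, was at means of 62.1 ± 39.6 CPM in GABAergic and 283 ± 102 in glutamatergic sums (SD, n = 11) and lower in 11 of 11 batches (-2.19 ± 0.17). egr1 was higher (0.79 ± 0.15) and jdp2b lower (-1.05 ± 0.24). Of 12 genes listed as markers of the neighbouring habenula and lens 3 passed the filter. The chemokine gene cxcl14 was higher in GABAergic neurons (3.00 ± 0.22, in 11 of 11 batches), and nrp1a, which encodes a neuropilin, was lower (-0.37 ± 0.12). Cells with a UMI of the habenula markers gng8 or kiss1 or the lens marker crygm2d13 made up 0% to 15.7% of GABAergic and 0% to 11.3% of glutamatergic cells per batch, the highest of each in batch 5, and leaving them out gave 669 and 657 calls. cxcl14 was not confined to such cells, with a UMI in 38.3% of GABAergic and 9.61% of glutamatergic cells. In batches 2, 3, 4 and 6, 0% of GABAergic cells held gng8, kiss1 or crygm2d13. There cxcl14 was at 306, 122, 485 and 759 CPM in the GABAergic sums, and the value of batch 3 was the lowest of all batches. The source of its UMIs was not tested.

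Whether the class difference changed with age was tested for each gene as the interaction of class and age, 7 dpf minus 6 dpf. By edgeR 0 of 5603 genes passed, and 99 (1.77%) had an unadjusted p under 0.05. By DESeq2 0 passed and 116 had an unadjusted p under 0.05. The smallest adjusted p by edgeR was 0.271. The interaction was measured less precisely than the difference itself, with a median SE of 0.31 beside 0.13, so that a change in the class difference of less than about that size was not detectable. For gad2 the interaction was 0.41 ± 0.56, for tal1 0.74 ± 0.41, for adcyap1b -0.35 ± 0.47 and for barhl2 -0.62 ± 0.29, none of which passed the edgeR test after adjustment.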

How the data were processed

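The data were UMI counts per gene and barcode from 10x Chromium 3′ v3 libraries of dissected larval tecta. The authors deposited the filtered count matrices of Cell Ranger 7.1.0 (12 lanes, 25432 genes, 287221630 UMIs), with reads aligned to the GRCz11 assembly. They combined technical replicas of batches 5, 6 and 8 and additional sequencing of batches 10 and 12 before deposit, and the 2 lanes of batch 11 were summed here. Barcodes were kept at the limits of the study's methods for genes, UMIs and mitochondrial share. Doublets, immediate early genes, habenula or lens cells and cells of the torus longitudinalis were not removed. The paper left a cluster with markers of the torus longitudinalis out of its tectal analyses. Neurons of that tissue can therefore be in the classes here, and their share was not measured.

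Cells were classed by their marker UMIs as described, and cell types were not clustered. The members and gene lists were chosen with earlier results of these data known. Counts were summed per batch and class, which gave 22 sums of 21564 to 5931093 UMIs (median 399850.5), and a sum with few UMIs measures low genes less precisely. The 3 class genes were removed first. Genes with at least 25.0 CPM in 11 of the 22 sums were tested with edgeR 4.0.16 in R 4.3.3 (TMM scaling, glmQLFit and glmQLFTest), with batch as a block because dissection and library are common to the classes within a batch. P-values were adjusted by the Benjamini-Hochberg method at a threshold of 0.05. They set the class difference against the variation that remains after the batch term. The SE of a log2 fold change was its size divided by the square root of the F statistic. Values per batch are CPM of the sum. Shares of cells were compared by exact permutation over batches. The other steps used pandas 2.3.3, scipy 1.17.1, matplotlib 3.10.9 and numpy 2.4.6 under Python 3.11.15.

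The genes named were the tested members of the transmission lists, the 10 called genes with the largest change in each direction that held in 11 of 11 batches and reached 20 CPM in the higher class, the called fate factors, up to 4 called genes in each direction by p from every other list, and up to 5 in each direction for the interaction with age, where there were none. Not all genes that the rule selects are printed. Tested on simulated counts for this comparison over 5496 genes, the fit recovered 96.8% of genes changed by 1 and 100% of genes changed by 2 on the log2 scale and called 0.188% of unchanged genes. The simulated counts had no batch effect, the same dispersion for every gene and few changed genes (93 and 91 of those tested). The data differ in these points, so the values do not give the power or error rate of the comparison itself. Alternatives were DESeq2 1.42.0, no filter, no block, other marker minimums, thinning to 1000 UMIs per cell, cells with elavl3, no habenula or lens cells, at most 4000 UMIs per cell, and subsets of the batches. No sequences or coordinates are given.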

Additional observations from a re-analysis of the deposited data

Results flagged for a closer look

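Of 68 groups of batches checked for a batch far from the others, 4 held one, and chance alone gives about 1 in 20. In batch 5, 15.7% of GABAergic cells held a habenula or lens marker, against 0% to 1.96% in the other 6 dpf batches. In batch 2, 5% of the 40 glutamatergic cells did, against 0.722% to 2.18% in the other 7 dpf batches. For gad1a, the log2 difference between classes (with a pseudocount of 25 CPM) was 0.19 in batch 1 and 0.91 to 1.44 in the other 7 dpf batches. For lhx9 it was -0.39 in batch 6, which had 33 GABAergic and 13 glutamatergic cells, and -2.39 to -2.22 in the other 6 dpf batches. The causes were not tested.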

How the results depend on the processing

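Of 150 genes chosen by the rule, 142 were called, and 76 of these kept their direction and their call in every one of the 23 alternatives in which they were tested. The counts of calls moved more than the directions. Beside 686 genes higher and 732 lower in GABAergic neurons, the fit with no filter gave 1154 and 1378, at least 3 marker UMIs gave 390 and 324 among 2741 genes tested, and thinning gave 419 and 399 among 2806. Batches 1 to 8 alone gave 93 and 92, batches 10 to 12 alone 1780 and 1629, and leaving out batches 2, 3 and 6 gave 1155 lower. Leaving out each batch in turn gave 439 to 829 higher and 353 to 869 lower. The fit with no replicate block gave 122 and 146, all but 1 of these 268 also called with the block, and 62 of the 142 genes lost their call without it. The other alternatives gave counts within 1.5 times those above, with 893 higher and 870 lower by DESeq2, and the interaction with age gave 0 calls by DESeq2 and without each batch in turn.

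The GABAergic share at 7 dpf minus that at 6 dpf was -22.5 to -15.5 percentage points without each batch in turn, past the threshold without batch 10 (-22.5) or 12 (-22.2). It was -9.44 points at a minimum of 1 marker UMI, -23.2 at 3 and -16.01 after thinning, none past the threshold.

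The sign of 3 genes turned. glsb, which was not called, was at 0.0102 with at least 1 marker UMI, 0.113 with at least 3, 0.0367 after thinning, 0.0023 in cells with elavl3, 0.0181 with at most 4000 UMIs, 0.0426 in batches 1 to 8, and -0.091 to 0.0041 without each batch in turn. glsa was at 0.0246 with at most 4000 UMIs and at 0.0666 in batches 10 to 12, and scg2b at 0.0569 in batches 10 to 12. The cause was not tested. Apart from these signs, the sums of batches 2 and 6 held few UMIs, which limits every result drawn from them.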
